A study of Mus musculus with 8 samples.

Results

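Albumin and the plasma carrier proteins are the proteins that hepatocytes secrete to hold lipids, hormones, vitamins, metals and heme in the blood, and 10 of their genes are described here in mouse liver with and without an induced hepatocyte deletion of the actin capping protein gene Capzb. They were taken by symbol as Alb, Ttr, Trf, Ahsg, Hpx, Rbp4, Gc, Serpina6, Fetub and Ambp from the 24421 gene symbols of a read count table. All 10 passed the filter on low counts that left 12985 genes for testing.

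Livers of C57BL/6N mice aged 8 to 10 weeks were perfused, and their poly(A) RNA was sequenced in 4 WT and 4 CAPZ_KO libraries. CAPZ_KO animals carried Albumin-CreERT2 and homozygous Capzb-fl/fl and were injected with tamoxifen on 5 consecutive days from an age of 4 to 6 weeks, so that a Cre recombinase driven by the albumin promoter, which is active in hepatocytes, deletes the floxed gene once tamoxifen is given. The animals called WT were of 2 kinds, Capzb-fl/fl mice injected with tamoxifen and uninjected mice with Albumin-CreERT2 and Capzb-fl/fl, and every animal thus had the floxed allele. Which kind a given WT library is cannot be read from the labels, so tamoxifen, the Cre driver and the deletion cannot be told apart. Nor do the sources used here say whether the driver lies within the Alb gene. The libraries are separate samples in the labels but are not said to come from separate animals, so p-values speak only of the spread among these libraries.

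Plasma carriers are made almost wholly by hepatocytes, and their messages are among the most abundant of the liver. Albumin keeps up the osmotic pressure of plasma and binds fatty acids, bilirubin and many drugs, while the more specialised carriers bind 1 or a few ligands and protect them from filtration or from reacting in the blood. Promoters of these genes are known for sites of C/EBP, FOXA and NF-Y factors, which act together to keep transcription high in the adult liver.

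Depth ran from 12060350 to 18916315 counts for the WT libraries and from 13122355 to 16984971 counts for CAPZ_KO. Capzb, the targeted gene, was at 120.1 ± 13.4 CPM (read counts normalised to library size) in WT and 72.4 ± 6.79 CPM in CAPZ_KO (SD, n = 4), a change of -0.73 ± 0.13 on the log2 scale (SE; edgeR adjusted p = 0.00134), but its share of all counts did not pass the test (log2 fold change -0.10, adjusted p = 0.441). All CPM are given after TMM scaling, whose factors rest on the assumption that most genes do not change between libraries. Whether this holds here was not tested. The factors were between 0.774 and 0.847 for WT and between 1.18 and 1.33 for CAPZ_KO. The share is the plain percentage of a library's counts. Between these scales the median log2 fold change of all tested genes moves by 0.62, from -0.0029 for CPM to 0.62 for the share, so each member is given on both. WT 4 and CAPZ_KO 4 held 5419 and 4067 counts of Xist, which female cells express, and the other 6 libraries at most 6, so each group holds RNA of more than 1 animal.

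Of the hepatocyte markers, 15 of 17 tested fell (median log2 fold change -1.70), and the list summed to between 45187 and 57351 CPM in WT and between 15110 and 24711 CPM in CAPZ_KO. Several lists of markers of other liver cells moved the other way. Markers that rose were 6 of 10 for cholangiocytes (224.9 to 321.0 CPM summed in WT and 598.6 to 1315 CPM in CAPZ_KO), 11 of 12 for stellate cells and fibroblasts (383.5 to 463.2 and 946.3 to 1469 CPM), 7 of 11 for Kupffer cells (908.9 to 2186 and 2027 to 4972 CPM), and 9 of 11 for monocyte-derived macrophages (317.7 to 494.9 and 627.8 to 871.1 CPM). Endothelial markers rose in 2 of 10 (418.5 to 645.5 and 498.5 to 733.0 CPM), neutrophil markers in 2 of 4 (10.1 to 34.9 and 30.5 to 52.4 CPM), and the 11 lymphocyte markers had a median log2 fold change of -0.09 (7.66 to 34.5 and 13.5 to 25.7 CPM). Of the erythroid list 1 gene, Alas2, could be tested and fell (log2 fold change -2.82), and 4 globin genes are listed at 0 in every library. As shares of all counts 14 of the 17 hepatocyte markers were lower, and markers with a higher share were 8 of 10 for cholangiocytes, 12 of 12 for stellate cells and fibroblasts, 10 of 11 for Kupffer cells, 11 of 11 for monocyte-derived macrophages, 6 of 10 for endothelial cells and 4 of 4 for neutrophils. By the same tests 19.0% of all tested genes fell and 22.4% rose after TMM scaling, and 5.40% had a lower and 59.0% a higher share. The endothelial counts were near these percentages. In bulk RNA, fewer cells of a type and less RNA per cell cannot be told apart, and the part that cell makeup has in the results below was not tested.

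The 10 carriers differed in size of change between CAPZ_KO and WT. After TMM scaling 6 fell (Alb, Ttr, Rbp4, Gc, Serpina6 and Fetub) and 4 did not pass the test (Trf, Ahsg, Hpx and Ambp). Fold changes ran from a log2 value of -3.55 for Serpina6 to 0.27 for Hpx, with a median of -0.67 against -0.0029 for all tested genes. Among all tested genes 19.0% fell and 22.4% rose by the same rule. By edgeR 0 members rose, at an adjusted as at an unadjusted p under 0.05, and DESeq2 and limma-voom also gave 6 lower and 0 higher. All 4 CAPZ_KO libraries lay below all 4 WT libraries for the same 6 genes, against 18.2% of all tested genes, and above them for 0, against 22.1%.

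**Figure D1:**
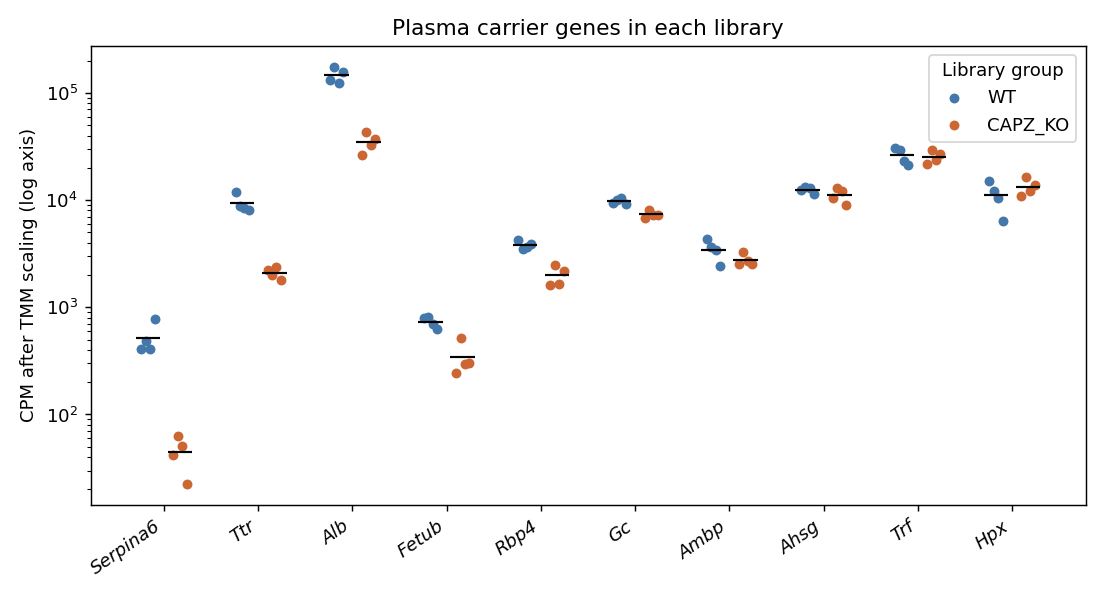
CPM after TMM scaling (log axis) of the 10 carriers in each library, WT beside CAPZ_KO, with the mean of each group as a bar. The groups stand apart for Alb, Ttr, Rbp4, Gc, Serpina6 and Fetub and overlap for Trf, Ahsg, Hpx and Ambp.

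Alb encodes albumin, the most abundant protein of plasma, and lies on chromosome 5 from 90460897 to 90476602 on the plus strand (GRCm38). Its level in WT 1 to WT 4 was 132339, 175143, 122729 and 156298 CPM, and in CAPZ_KO 1 to CAPZ_KO 4 it was 26276, 43046, 32449 and 36915 CPM. Every CAPZ_KO library was thus far below the lowest WT library, WT 3. The mean went from 146627 ± 23678 to 34671 ± 7085 CPM (SD, n = 4), or 23.6% of WT, a change of -2.08 ± 0.21 on the log2 scale (SE; edgeR adjusted p = 8.151e-05). As a share of all counts Alb took 10.2%, 14.1%, 9.80% and 13.2% in WT and 3.49%, 5.09%, 4.09% and 4.43% in CAPZ_KO. The share therefore fell too, with the groups apart and a log2 fold change of -1.47 (edgeR adjusted p = 0.000108).

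Gc encodes the vitamin D binding protein, a relative of albumin that also takes up actin set free by dying cells, and lies on chromosome 5 from 89417522 to 89457898 on the minus strand. Levels in WT were 9358, 9924, 10526 and 9228 CPM and in CAPZ_KO 6813, 8112, 7283 and 7282 CPM. All CAPZ_KO libraries were below all WT libraries, by a margin much smaller than for Alb. The mean went from 9759 ± 594.0 to 7373 ± 540.6 CPM (SD, n = 4). This change, of -0.40 ± 0.14 on the log2 scale (SE), passed the test narrowly (edgeR adjusted p = 0.0460). As a share of counts the order turned round. Gc took 0.724%, 0.798%, 0.840% and 0.782% in WT and 0.905%, 0.960%, 0.918% and 0.874% in CAPZ_KO, so that every CAPZ_KO library was above every WT library, though the test was not passed (log2 fold change 0.22, edgeR adjusted p = 0.144). On the share scale 54.2% of all tested genes had every CAPZ_KO library above every WT library, and the median log2 fold change of all tested genes was 0.62. The call on the CPM scale held in 8 of 21 alternatives. With 1 library left out at a time it held only without WT 4 (edgeR adjusted p = 0.0451) or without CAPZ_KO 2 (0.0429), and was lost without any of the other 6 libraries, at adjusted p of 0.0518 to 0.120, and in the fit with a replicate block (0.0924).

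Alb and Gc belong to 1 cluster on chromosome 5, which also holds Afp, the fetal form of albumin (90490737 to 90508907), and Afm, a vitamin E carrier (90518932 to 90553543). Afm fell from 458.4 ± 44.8 to 70.9 ± 5.22 CPM (SD, n = 4; log2 fold change -2.69 ± 0.14 SE, edgeR adjusted p = 2.644e-06), and an exon of it overlaps the opposite-strand gene Gm42109. Afp rose from 3.07 ± 0.939 to 7.46 ± 2.99 CPM (log2 fold change 1.29 ± 0.33 SE, edgeR adjusted p = 0.0113), and its level stayed far below that of the other genes of the cluster. The 4 libraries of CAPZ_KO were at 9.41, 5.43, 10.6 and 4.44 CPM for Afp and those of WT at 4.07, 3.55, 2.69 and 1.94 CPM, so the groups were apart by a small gap between CAPZ_KO 4 and WT 1.

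The promoters of Alb and Gc, and that of Ahsg as a carrier whose level did not pass the test, are shown because they hold the letters of sites known for C/EBP or NF-Y factors. The windows are the 250 bases before the RefSeq transcript start (GRCm38.p6), at chr5:90460620-90460869 on the plus strand for Alb, chr5:89457899-89458148 on the minus strand for Gc and chr16:22891765-22892014 on the plus strand for Ahsg. The Ahsg window lies inside the gene as placed by GENCODE, which starts at 22891277, but overlaps no annotated exon. Capitals mark the C/EBP core TTGCNNAA and the NF-Y core CCAAT, on either strand.
Alb: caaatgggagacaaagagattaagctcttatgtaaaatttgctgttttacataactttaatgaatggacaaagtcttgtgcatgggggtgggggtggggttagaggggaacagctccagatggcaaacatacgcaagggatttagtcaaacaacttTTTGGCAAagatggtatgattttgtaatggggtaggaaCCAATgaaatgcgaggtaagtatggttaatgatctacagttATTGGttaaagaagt
Gc: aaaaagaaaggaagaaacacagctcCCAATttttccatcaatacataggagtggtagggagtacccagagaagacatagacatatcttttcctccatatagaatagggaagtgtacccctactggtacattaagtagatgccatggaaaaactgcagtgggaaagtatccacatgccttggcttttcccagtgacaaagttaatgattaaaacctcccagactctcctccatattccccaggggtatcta
Ahsg: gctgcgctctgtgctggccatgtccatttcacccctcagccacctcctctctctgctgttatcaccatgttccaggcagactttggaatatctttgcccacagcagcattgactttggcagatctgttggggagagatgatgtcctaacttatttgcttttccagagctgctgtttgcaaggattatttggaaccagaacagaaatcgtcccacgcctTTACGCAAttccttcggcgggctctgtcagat
In the Alb window the C/EBP core begins 94 bases before the start, and CCAAT or its reverse complement 56 and 15 bases before it. The Gc window has CCAAT at 225 bases and no C/EBP core, and the Ahsg window has the C/EBP core at 32 bases and no CCAAT.

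RefSeq had windows for 7 of the 10 genes, 9 windows in all because Fetub and Rbp4 have 2 each. The windows of Hpx and Ambp, that of Fetub from 22918132 and that of Rbp4 from 38124812 overlap an annotated exon of their own gene. TTGCNNAA was in 4 of the 9 (Ahsg, Alb, Hpx and Rbp4) against 9.56% of all 32851 windows. CCAAT was in 6 of the 9 (Alb, Ambp, Fetub, Gc, Hpx and Rbp4) against 33.8%. No match of either overlapped a match of the other in these windows. The FOXA core TGTTTNC, also searched on both strands, was in 6 of the 9 (Ahsg, Alb, Ambp, Fetub and Rbp4) against 17.8%. A match describes letters only and says nothing of a bound factor. Of the genes with TTGCNNAA, Alb and Rbp4 fell after TMM scaling, while Ahsg and Hpx did not pass the test.

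Transport of thyroid hormone and retinol rests on Ttr and Rbp4, which travel in plasma as 1 complex. Ttr, transthyretin, had 11921, 8745, 8466 and 8114 CPM in WT and 2229, 2004, 2378 and 1803 CPM in CAPZ_KO. WT 1 was above the other WT libraries, and all CAPZ_KO libraries were far below the lowest of them. Ttr fell from 9312 ± 1759 to 2104 ± 252.7 CPM (SD, n = 4), to 22.6% of WT, a change of -2.15 ± 0.19 on the log2 scale (SE; edgeR adjusted p = 3.544e-05). Its share went from 0.747 ± 0.117% to 0.262 ± 0.0421% (log2 fold change -1.51, edgeR adjusted p = 6.559e-05), and here too the groups did not overlap.

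Rbp4, the retinol carrier, lies on chromosome 19 from 38116629 to 38125281 on the minus strand. WT libraries held 4254, 3473, 3613 and 3878 CPM and CAPZ_KO libraries 1613, 2483, 1636 and 2196 CPM. The groups were apart, and CAPZ_KO 2 was closest to WT. Rbp4 fell from 3804 ± 343.5 to 1982 ± 429.1 CPM (SD, n = 4), to 52.1% of WT (log2 fold change -0.94 ± 0.18 SE, edgeR adjusted p = 0.00269). Its share was 0.329%, 0.279%, 0.288% and 0.328% in WT and 0.214%, 0.294%, 0.206% and 0.264% in CAPZ_KO, where CAPZ_KO 2 lay within the WT range and the test was not passed (log2 fold change -0.33, edgeR adjusted p = 0.0878). Without CAPZ_KO 2 the Rbp4 share passed it (log2 fold change -0.43, edgeR adjusted p = 0.0431). Per length of transcript, Ttr stood at 1.93 ± 0.236 times the CPM of its partner Rbp4 in WT and at 0.882 ± 0.276 times in CAPZ_KO (SD, n = 4).

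Serpina6 encodes corticosteroid binding globulin, the carrier of glucocorticoids, on chromosome 12 from 103646630 to 103657212 on the minus strand. It had 410.5, 479.5, 409.9 and 772.4 CPM in WT and 41.7, 62.3, 50.3 and 22.5 CPM in CAPZ_KO. The highest WT value was in WT 4 and the lowest CAPZ_KO value in CAPZ_KO 4, the 2 libraries with Xist. Serpina6 had the largest fold change of the 10, from 518.1 ± 172.6 to 44.2 ± 16.8 CPM (SD, n = 4), 11.7-fold lower, a change of -3.55 ± 0.34 on the log2 scale (SE; edgeR adjusted p = 6.616e-05). Without WT 4 and CAPZ_KO 4, a comparison chosen after the data were seen, the log2 fold change was -3.08 (edgeR adjusted p = 2.093e-05). The share fell as well (log2 fold change -2.94, edgeR adjusted p = 8.842e-05). The least-counted member value is that of CAPZ_KO 4, where 441 counts gave a share of 0.00270% (95% Wilson interval 0.00246% to 0.00297%, for counting error only).

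Among neighbours of Serpina6 in its cluster of serpin genes, 4 of 8 listed could be tested, and 3 of them fell with Serpina6 included. Serpina11 went from 108.2 ± 36.6 to 30.1 ± 2.61 CPM (log2 fold change -1.84 ± 0.25 SE, edgeR adjusted p = 0.000345), and its exons overlap the same-strand gene Gm28577. Serpina12, which encodes the adipokine vaspin, was at 50.8, 19.4, 88.8 and 4.73 CPM in WT and at 4.86, 3.83, 3.69 and 4.80 CPM in CAPZ_KO. WT 4 was within the CAPZ_KO range, and the fold change of Serpina12 (log2 value -3.24 ± 0.78 SE, edgeR adjusted p = 0.0113) rests on the other WT libraries. Without WT 3 the log2 fold change of Serpina12 was -2.53. With a replicate block the call on Serpina12 was lost (edgeR adjusted p = 0.0704), as it was by limma-voom (log2 fold change -2.50, limma-voom adjusted p = 0.0513). Serpina10, an inhibitor of clotting factors, did not pass the test (log2 fold change -0.28, edgeR adjusted p = 0.266).

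Iron and heme are carried by the proteins of Trf and Hpx, neither of which passed the test after TMM scaling. Trf encodes transferrin, the iron carrier, on chromosome 9 from 103204001 to 103230444 on the minus strand, and its exons overlap those of Gm20425 on the same strand, which was not analysed here. Trf was at 30701, 29487, 23301 and 21334 CPM in WT and at 21867, 29230, 23842 and 26858 CPM in CAPZ_KO. The CAPZ_KO range lay within that of WT, and the means of 26206 ± 4588 and 25449 ± 3250 CPM (SD, n = 4) differed by less than the spread (log2 fold change -0.04, 95% interval -0.45 to 0.37, edgeR adjusted p = 0.871). As a share of counts Trf took 2.38%, 2.37%, 1.86% and 1.81% in WT and 2.90%, 3.46%, 3.01% and 3.22% in CAPZ_KO. All CAPZ_KO libraries were above all WT libraries on that scale (log2 fold change 0.58, edgeR adjusted p = 0.00693). This was near the median of all tested genes (0.62), and 54.2% of those genes were apart in the same direction.

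Hpx encodes hemopexin, which binds free heme and delivers it to the liver, on chromosome 7 from 105591613 to 105600137 on the minus strand. It was at 15080, 12246, 10484 and 6421 CPM in WT and at 10889, 16363, 12165 and 13920 CPM in CAPZ_KO. WT 4 was low and CAPZ_KO 2 high, and the ranges overlapped. The log2 fold change was 0.27 (95% interval -0.30 to 0.84, edgeR adjusted p = 0.425), and it was 0.07 without WT 4. The Hpx share went from 0.883 ± 0.263% to 1.65 ± 0.213% with no overlap, the largest rise in share among the 10 (log2 fold change 0.90, edgeR adjusted p = 0.00541). The median of all tested genes was 0.62 on that scale.

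Ahsg and Fetub, the fetuins, are cystatin relatives that lie side by side on chromosome 16 on the plus strand, Ahsg from 22891277 to 22899449 and Fetub from 22918334 to 22939778. Ahsg encodes fetuin-A, which holds calcium phosphate in solution, and its exons overlap those of the opposite-strand gene Gm30505, which had 26 to 76 counts per library. For Ahsg the values were 12350, 13149, 13087 and 11400 CPM in WT and 10548, 13002, 12136 and 8944 CPM in CAPZ_KO. The groups overlapped, with CAPZ_KO 4 lowest, and the log2 fold change of -0.16 did not pass the test (95% interval -0.54 to 0.21, edgeR adjusted p = 0.461). The Ahsg share was 0.956%, 1.06%, 1.04% and 0.966% in WT and 1.40%, 1.54%, 1.53% and 1.07% in CAPZ_KO. It was higher with the groups barely apart at CAPZ_KO 4 and WT 2 (log2 fold change 0.46, edgeR adjusted p = 0.0215), a call lost without CAPZ_KO 1, 2 or 3 in turn, at adjusted p of 0.0505 to 0.0661. The rise was below the median share change of all tested genes (0.62).

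Fetub encodes fetuin-B, an inhibitor of the protease ovastacin that oocytes release. Libraries of WT were at 797.2, 815.4, 699.1 and 627.1 CPM and libraries of CAPZ_KO at 245.3, 518.5, 298.3 and 303.4 CPM. CAPZ_KO 2 stood above the other CAPZ_KO libraries and still below every WT library. Fetub fell from 734.7 ± 88.1 to 341.4 ± 121.0 CPM (SD, n = 4; log2 fold change -1.11 ± 0.23 SE, edgeR adjusted p = 0.00376), while its share did not pass the test (log2 fold change -0.49, edgeR adjusted p = 0.0515). Without CAPZ_KO 2 the Fetub share passed (log2 fold change -0.73, edgeR adjusted p = 0.00257), as it did with a replicate block (-0.53, edgeR adjusted p = 0.0175). Per length, Ahsg was at 18.4 ± 1.68 times the CPM of Fetub in WT and at 37.2 ± 9.31 times in CAPZ_KO (SD, n = 4), so these neighbours did not move in step.

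Further genes of the fetuin and kininogen cluster lie on the same chromosome. Kng1, a kininogen, fell from 3177 ± 181.2 to 1686 ± 374.8 CPM (log2 fold change -0.91, edgeR adjusted p = 0.00269), and Hrg, the histidine-rich glycoprotein, from 1570 ± 315.2 to 676.3 ± 281.2 CPM (log2 fold change -1.22, edgeR adjusted p = 0.00673). Kng2 did not pass the test on the CPM scale (log2 fold change -0.25, edgeR adjusted p = 0.242) and was higher as a share (log2 fold change 0.37, edgeR adjusted p = 0.0466). Without CAPZ_KO 2 it passed on the CPM scale (log2 fold change -0.43, edgeR adjusted p = 0.0487). With Fetub, 3 of the 5 genes of the cluster fell on the CPM scale and 2 did not pass. As shares 2 of the 5 (Ahsg and Kng2) were higher, against 59.0% of all tested genes. Fetub, Kng1 (log2 fold change -0.30, edgeR adjusted p = 0.111) and Hrg (-0.62, edgeR adjusted p = 0.0593) did not pass on that scale.

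Ambp encodes a precursor that is cut into alpha-1-microglobulin, a heme and radical scavenger, and bikunin, the light chain of the inter-alpha-inhibitors. It lies on chromosome 4 from 63143275 to 63154799 on the minus strand. Ambp had 4318, 3670, 3399 and 2427 CPM in WT and 2528, 3262, 2692 and 2523 CPM in CAPZ_KO. WT 4 was the lowest of all 8 libraries, and the remaining WT libraries were above every CAPZ_KO library. With all libraries the log2 fold change was -0.33 (95% interval -0.76 to 0.11, edgeR adjusted p = 0.206). Without WT 4 it was -0.47 and passed narrowly (edgeR adjusted p = 0.0497), but WT 4 is 1 of the 2 libraries with Xist. Without both of them, a comparison chosen after the data were seen, Ambp did not pass (-0.43, edgeR adjusted p = 0.106). Nor did it pass with sex as a term (-0.31, edgeR adjusted p = 0.169). The share was 0.277 ± 0.0539% in WT and 0.341 ± 0.0342% in CAPZ_KO, with overlapping values (log2 fold change 0.30, edgeR adjusted p = 0.138).

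**Figure D2:**
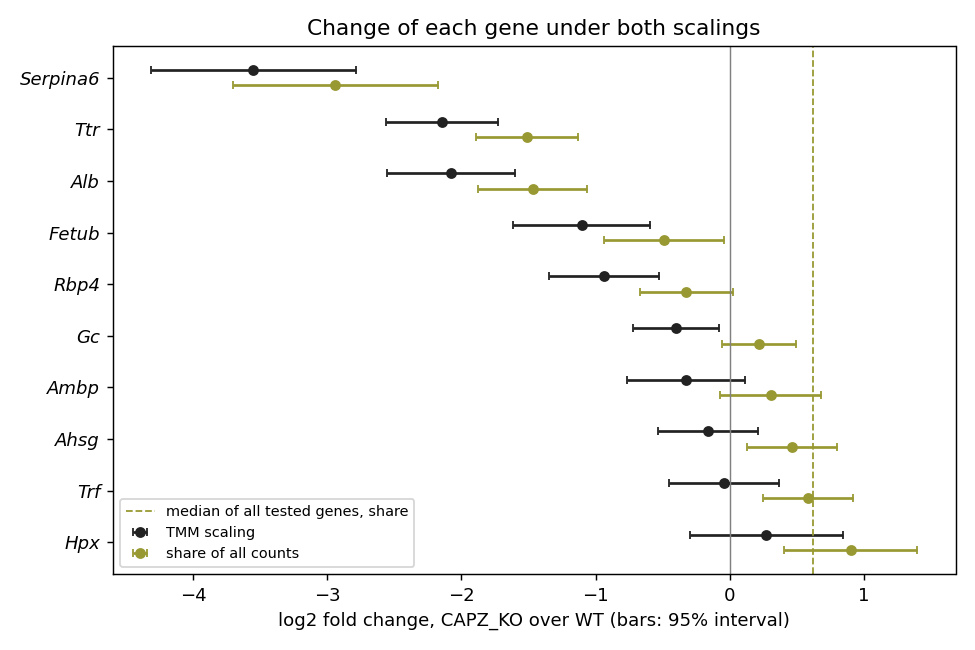
Log2 fold change of each carrier, CAPZ_KO over WT, with its 95% interval, after TMM scaling and as a share of all counts, and the median share change of all tested genes (0.62) as a dashed line. Alb, Ttr and Serpina6 are below 0 on both scales, at -1.47 or lower, and Rbp4 and Fetub are below 0 on both by less. The share values of Trf, Ahsg, Hpx, Gc and Ambp are above 0, and those of Trf, Ahsg and Hpx passed the test.

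Read as shares, 3 of the 10 carriers fell (Alb, Ttr and Serpina6), 3 rose (Trf, Ahsg and Hpx) and 4 did not pass the test, with a median log2 fold change of -0.05 against 0.62 for all tested genes. Of all tested genes 5.40% had a lower and 59.0% a higher share by the same test. CAPZ_KO libraries were all below WT for those 3 falling genes, against 4.31% of all genes, and all above WT for 4 (Trf, Ahsg, Hpx and Gc), against 54.2%. A lower share was thus the uncommon direction in these libraries, and a higher share the common one.

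Together the 10 genes took 15.7% to 20.7% of all counts in WT and 11.0% to 14.0% in CAPZ_KO. Every CAPZ_KO library was below every WT library, and the mean fell by 5.78 percentage points (from 18.0 ± 2.13% to 12.3 ± 1.23%, SD, n = 4). Without Alb the direction was the opposite. The other 9 took 6.21 ± 0.661% in WT (5.44% to 6.90%) and 7.99 ± 0.607% in CAPZ_KO (7.54% to 8.88%), which is 1.78 points more, again without overlap. A higher share was the common direction, with a median log2 fold change of 0.62 over all tested genes, a scale that differs from percentage points. Of the 9, Hpx alone had a share log2 fold change above that median (0.90). After TMM scaling 0 of the 10 members rose. Alb alone made up 59.7% to 70.9% of the counts of the 10 genes in WT and 31.6% to 36.6% in CAPZ_KO. These sums are described with no test.

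**Figure D3:**
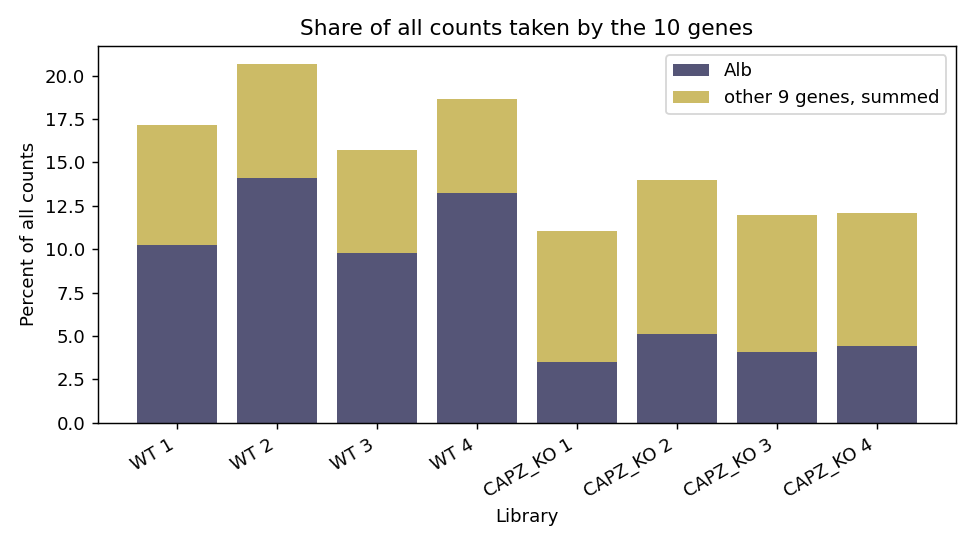
Percent of all counts taken by Alb and by the other 9 carriers in each of the 8 libraries. Alb takes 9.80% to 14.1% in WT libraries and 3.49% to 5.09% in CAPZ_KO libraries, the others together 5.44% to 6.90% and 7.54% to 8.88%.

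Within a library, each count can be set against the mean log2 count of the 10 carriers, a ratio that no scaling between libraries can change. On this scale Serpina6 (-2.54), Ttr (-1.08) and Alb (-1.04) had lower mean log2 values in CAPZ_KO, with all CAPZ_KO libraries below WT, as 1.64% of all tested genes had. Hpx (1.37), Trf (1.02), Ahsg (0.88), Ambp (0.75) and Gc (0.65) had higher ones, with all CAPZ_KO libraries above WT, as 70.8% of all tested genes had. Rbp4 (0.09) and Fetub (-0.10) overlapped between groups. These differences must sum to 0 over the 10 genes, so they show the order of the members and not the size of a change.

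**Figure D4:**
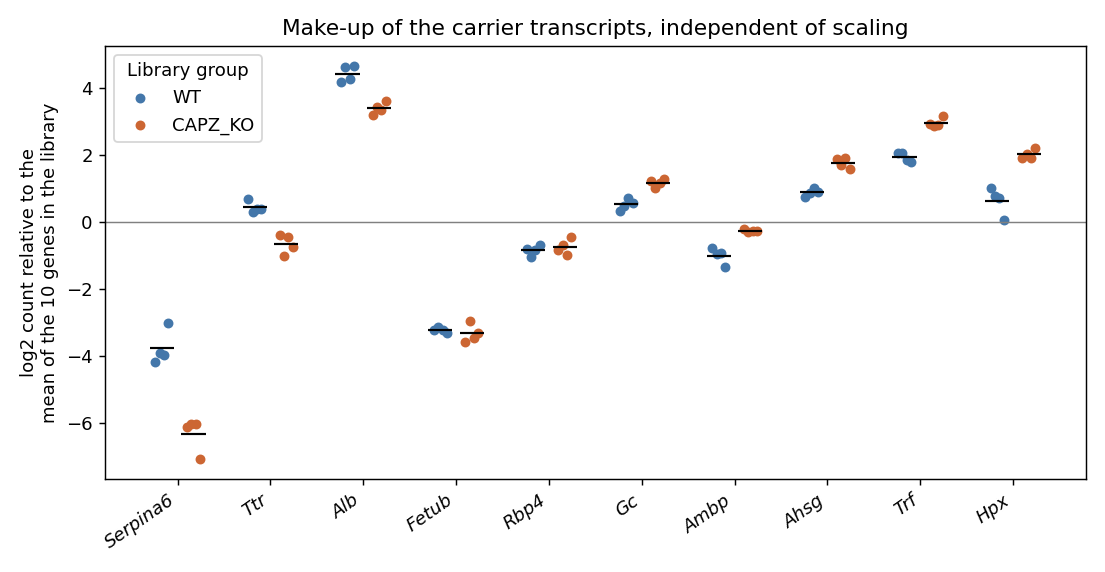
Log2 count of each carrier relative to the mean log2 count of the 10 carriers in the same library, by library. Serpina6, Ttr and Alb lie lower in CAPZ_KO, Hpx, Trf, Ahsg, Ambp and Gc lie higher, and Rbp4 and Fetub overlap.

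Levels of different genes can be compared per length, as CPM per kb of the principal transcript. In WT the order from the highest was Alb, Trf, Ahsg, Ttr, Hpx, Gc, Rbp4, Ambp, Fetub and Serpina6. In CAPZ_KO it was Alb, Trf, Hpx, Ahsg, Gc, Ambp, Rbp4, Ttr, Fetub and Serpina6, so that Ttr went from rank 4 to rank 8. In WT the means of Ahsg, Ttr and Hpx (8421 ± 549.8, 7851 ± 1483 and 7377 ± 2418 CPM per kb, SD, n = 4) lay within their spread of each other. In CAPZ_KO the same held for Ambp, Rbp4 and Ttr (2170 ± 275.7, 2115 ± 458.0 and 1774 ± 213.1 CPM per kb). Alb stood first in both groups, at 7.22 ± 1.60 times Trf in WT and 1.71 ± 0.142 times in CAPZ_KO, and at 13.4 ± 2.43 and 4.14 ± 0.576 times Gc.

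Of 16 other plasma carriers tested, 7 fell, 4 rose and 5 did not pass, with a median log2 fold change of -0.56, and as shares 3 fell and 5 rose. Beside this list and those below, 19.0% of all tested genes fell and 22.4% rose after TMM scaling. On the share scale 5.40% of all tested genes fell and 59.0% rose. Afm, described above, fell furthest of the genes named by their p-value. Igfals, which holds insulin-like growth factors in plasma, fell from 174.8 ± 25.2 to 38.8 ± 12.2 CPM (log2 fold change -2.17), Apom, the carrier of sphingosine phosphate, from 422.3 ± 38.2 to 149.1 ± 63.3 CPM (-1.50), and Azgp1 from 1989 ± 109.6 to 1066 ± 193.6 CPM (-0.90). Of these the share of Azgp1 did not pass the test (log2 fold change -0.28, edgeR adjusted p = 0.0902). Besides Afp, the genes that rose were Cp, the copper carrier ceruloplasmin (log2 fold change 0.86, edgeR adjusted p = 0.00656), Pltp, which moves phospholipid between lipoproteins (1.46, edgeR adjusted p = 0.00674), and Lcn2, which binds bacterial siderophores (3.82, edgeR adjusted p = 0.00327), named after their values were seen.

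Secreted plasma proteins that are not carriers in the narrow sense fell in 33 of 40 genes tested, while 7 did not pass, at a median log2 fold change of -1.09. As shares 20 fell and 4 rose. Apoa2, an apolipoprotein of high-density lipoprotein, fell from 8534 ± 1856 to 1670 ± 352.7 CPM (log2 fold change -2.35). The clotting factor gene F9 fell by 1.21 on the log2 scale, Plg, the plasminogen gene, by 1.55 and Itih1, a heavy chain that bikunin is joined to, by 1.52 (edgeR adjusted p = 8.016e-05, 0.000119 and 0.000137).

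Acute phase genes, listed here as genes mostly known for a changed output of the liver in inflammation, fell in 8 of 27 cases and rose in 2, Cp and Lcn2, with a median log2 fold change of -0.34. The other 17 did not pass, among them Saa2, Saa3, Hp, Orm2 and Lbp, while Saa1 fell (log2 fold change -2.62, edgeR adjusted p = 0.0406). These were named after their values were seen. Albumin, transthyretin and transferrin are textbook negative acute phase proteins and hemopexin a positive one. Saa4 (log2 fold change -2.40), Crp (-1.53), Itih4 (-1.48) and Fgg (-1.79) had the smallest p-values of the list, and all of these are lower in CAPZ_KO. As shares 6 of the 27 fell and 5 rose.

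Receptors and partners of the carriers fell in 14 of 22 genes tested and rose in 3, with a median log2 fold change of -0.64. Dio1, which activates the thyroid hormone that Ttr carries, fell from 205.1 ± 84.2 to 8.66 ± 4.58 CPM (log2 fold change -4.57, edgeR adjusted p = 7.862e-05). Asgr2, a subunit of the receptor that clears glycoproteins from plasma, fell by 1.37 on the log2 scale. The genes that rose were Itih5, an inter-alpha-inhibitor heavy chain gene (log2 fold change 1.58), Lrat, which esterifies retinol and marks stellate cells (1.78), and Thra, a thyroid hormone receptor (0.52). The call on Thra was lost without CAPZ_KO 1, CAPZ_KO 2 or WT 3 (edgeR adjusted p = 0.0552 to 0.0821). For Trf, the receptor gene Tfr2 of hepatocytes fell (log2 fold change -1.17, edgeR adjusted p = 0.000463) and Tfrc of most cells did not pass (0.36, edgeR adjusted p = 0.331). Lrat, Thra, Tfr2 and Tfrc were named after their values were seen. On the share scale 6 of the list fell and 7 rose.

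Transcription factors of the liver fell in 15 of 26 genes tested, the others not passing, with a median log2 fold change of -0.74. Cebpa, the C/EBP factor of quiescent hepatocytes, went from 389.9 ± 65.8 to 167.6 ± 18.7 CPM (log2 fold change -1.22, edgeR adjusted p = 0.000261). Nr1h4, the bile acid receptor, fell by 1.01, Ppara, the fatty acid sensor, by 2.04 and Hlf, a clock output factor, by 1.65 on the log2 scale. Hnf4a, a nuclear receptor of hepatocytes named after its values were seen, fell after TMM scaling (log2 fold change -0.71) and did not pass on the share scale (-0.09), where 5 of the list fell and 4 rose.

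**Figure D5:**
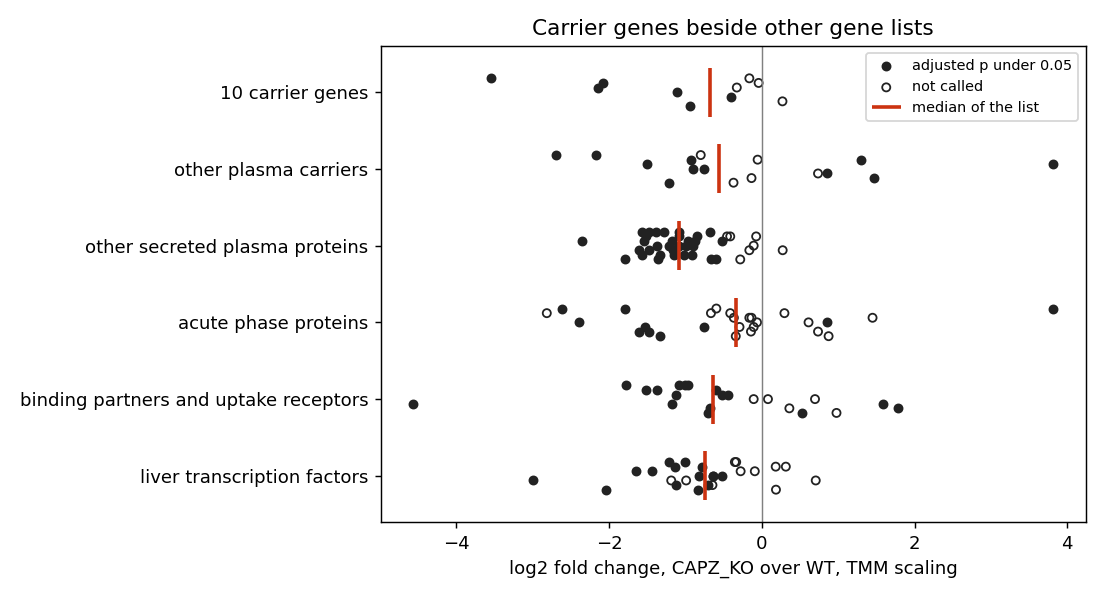
Log2 fold changes after TMM scaling of the tested genes of each pathway list, with the list's median as a bar and the 10 carriers at the top. The medians are -1.09 for other secreted proteins, -0.74 for transcription factors, -0.64 for partners and receptors, -0.56 for other carriers and -0.34 for acute phase genes.

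Genes most like Alb over the 8 libraries were found among 1479 genes with a mean of at least 100 CPM, by the root mean square difference in log2(CPM + 1) after centring each gene on its own mean. Cyp2c68 was closest (0.138), and the next were Slc27a2 (0.169), Ugt3a2 (0.185), Pbld2 (0.209) and Slc27a5 (0.235). Cyp2c68 is a cytochrome P450 of a large family, in which reads can be divided among near copies, Slc27a2 and Slc27a5 are fatty acid transport proteins with acyl-CoA synthetase activity, and Ugt3a2 is a glycosyltransferase. Cyp2c68 went from 471.2 ± 48.1 to 121.1 ± 22.1 CPM and Slc27a2 from 1536 ± 346.5 to 334.6 ± 35.7 CPM (SD, n = 4), with log2 fold changes of -1.96 and -2.20 beside the -2.08 of Alb. Since likeness was measured across both groups, fold changes near that of Alb follow from the choice of these genes. None of these 5 genes is one of the other carriers.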

How the data were processed

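The authors deposited raw read counts per gene symbol for 8 mouse liver libraries, made by stranded poly(A) preparation per the labels. They used STAR 2.5.3a, bcl2fastq, edgeR, featureCounts and R 3.3.1 with mm10, per the submitters' processing notes, which give no role or order. The sources used here do not give the annotation, the strand setting or the treatment of reads with several matches.

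Genes were kept by filterByExpr (minimum count 10, total 15), scaled by TMM and tested by the edgeR 4.0.16 quasi-likelihood test with robust dispersion (R 4.3.3, limma 3.58.1), with Benjamini-Hochberg adjustment over all 12985 genes and a threshold of 0.05. The common biological coefficient of variation was 24.9%. Shares were tested in the same way with library sizes alone. The SE is the size of the log2 fold change divided by the square root of the F statistic. On data simulated for the comparison, over 12833 genes, 10 of 12636 unchanged genes were called, as were 4 of 50 changed 1.5-fold, 30 of 48 changed 2-fold, 49 of 50 changed 4-fold and 49 of 49 changed 8-fold.

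The members, 8 gene lists and 9 marker lists were chosen with earlier results of these data known. Named genes are the members, up to 4 genes with the smallest p of each of the lists other plasma carriers, other secreted plasma proteins, acute phase proteins, partners and receptors, and transcription factors, all tested genes of the albumin, fetuin and Serpina6 clusters, and the 5 genes most like Alb. Genes outside this rule are said to be named after their values were seen. Some genes are in more than 1 list, such as Itih1, Cp and Lcn2. Positions are from GENCODE vM21. Alternatives were DESeq2 1.42.0, limma-voom, other scalings and filters, a replicate block, sex as a term and leaving out libraries. The replicates differed by more than sampling noise.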

Additional observations from a re-analysis of the deposited data

Results flagged for a closer look

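Ttr in WT 1, at 11921 CPM after TMM scaling and 0.922% of all counts, was farther above the other 3 WT libraries than Dixon's test at 95% allows for a group of 4, on both scales. The 4 libraries of each group were tested for every member on both scales, 40 groups in all, of which chance flags about 1 in 20, and these 2 were the ones found. Leaving out WT 1 gave a log2 fold change of Ttr of -2.01 (edgeR adjusted p = 8.316e-05).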

How the results depend on the processing

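With library sizes alone in place of TMM, members lower went from 6 to 3 and members higher from 0 to 3, all genes lower from 2468 to 701 and all genes higher from 2914 to 7662. The log2 fold changes of Ahsg (0.46), Gc (0.22), Trf (0.58) and Kng2 (0.37) then had the opposite sign, each passing the test on 1 of the 2 scales. Those of Ambp (0.30) and Serpina10 (0.35), among others, also changed sign but passed on neither scale. At a threshold of 0.01, 1438 genes were lower and 1864 higher. With the counts of Alb, or of all members, taken out of the library size, 5 members had a lower share in place of 3, and with 1 library left out at a time 3 to 5, the latter without CAPZ_KO 2. Without Alb, the summed share was higher in CAPZ_KO by 1.78 points, the common direction of shares in these libraries. The calls of Alb, Ttr and Serpina6 held in all 21 alternatives of TMM, filter, test and left-out library. The call of Ahsg on the share was lost with the counts of Alb taken out (adjusted p = 0.0788).

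The replicate numbers were not taken to pair the samples, and whether they do is not settled here. The correlations of deviations of same-numbered libraries were all positive, at 0.245, 0.0251, 0.0847 and 0.301. WT 1, WT 3 and WT 4 each correlated best with their own number, and WT 2 with CAPZ_KO 3 (0.0301). WT 4 and CAPZ_KO 4 are the libraries with Xist. With a replicate block 5 members were lower and 0 higher. Changes of 1.5-fold were seldom called in data simulated at the depth of these libraries, and other depths were not tried. In that simulation 12636 of 12833 genes were unchanged, while in the libraries themselves 2468 genes were lower and 2914 higher. The adjustment over all genes is less strict where more genes change. How often a 1.5-fold change is called in these libraries thus cannot be read from the simulation.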

Other observations

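Ass1, a urea cycle enzyme gene on the hepatocyte list that is known for a high level in liver, had 10 to 18 counts in WT and 2 to 9 in CAPZ_KO and could not be tested.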
